A study of Mus musculus with 6 samples.

Results

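The 38 genes described here form the NRF2, glutathione and antioxidant defence set, compared between B16-F1 and D5.1G4, a pair of melanoma lines from the mouse. They form a named list of genes rather than a group picked by a cut-off on these arrays, and were found on the array through the transcript accession of each probe. All 38 had a probe, 48 probes in all, out of 20659 genes and 39429 probes on the array. Neither line was treated. Wells were seeded with 1000000 cells, cultured for 24 h in serum-containing RPMI-1640 (10% FBS), and had a confluence between 75% and 95%. The B16-F1 group and the D5.1G4 group each held 3 one-colour microarrays of total RNA. Whether the replicates came from separate cultures is not stated in the labels, so a p-value here covers variation among these 6 samples and no more, and that variation may be technical. Each group is a single cell line, and a difference between the groups cannot be told apart from a difference between these particular cultures.

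NRF2, encoded by Nfe2l2, is a transcription factor that switches on genes against oxidants and reactive chemicals. In unstressed cells KEAP1 holds NRF2 and hands it to a CUL3 ubiquitin ligase for degradation, and oxidants or electrophiles interrupt this, so that NRF2 enters the nucleus and binds antioxidant response elements together with small MAF proteins. Its targets make and recycle glutathione, couple glutathione to reactive compounds, reduce quinones, break down heme and keep thioredoxin reduced. Pigment cells have a particular need for this system because melanin synthesis itself produces quinones and hydrogen peroxide.

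Both lines carried the markers of their labelled cell type: each of the 10 melanocyte markers examined, among them Mitf, Sox10, Tyr, Pmel and Mlana, stood well above background on every array. Their levels were not all alike. Mc1r (2.15-fold, adjusted p = 0.00146, limma) and Slc45a2 (2.33-fold, adjusted p = 0.000779) were called higher in B16-F1, where 15.2% of all features were called. Under 2-fold, Tyr and Gpr143 (higher in B16-F1) and Mlana (lower) passed the adjusted p of 0.05. Of 27 markers of leukocytes, fibroblasts, endothelium, epithelium and red cells, 8 stood above background throughout, 13 were not well above background on any array, 12 were tested and 0 were called (0 also at an unadjusted p under 0.05, limma). The share of spots well above background lay between 53.4% and 62.0% per array, and 75th percentiles of the signal between 838.9 and 2034.6. The arrays fell into 3 groups by scan time, called slides here although slide identity itself was not read. Slide 1 held B16-F1 replicates 2 and 3, and slide 3 held D5.1G4 replicate 1. Slide 2 held B16-F1 replicate 1 with D5.1G4 replicates 2 and 3. Only slide 2 held both lines, with 1 B16-F1 array. A fit with the slide as a block therefore takes its difference from that slide, for genes measured throughout.

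The promoters of these genes differ in whether they hold the core of an antioxidant response element, TGACNNNGC, close to the transcription start. RefSeq windows on the GRCm38.p6 build, reaching from 250 bases before to 50 bases after a start, were available for 32 of the 38 genes. Searched on both strands, the motif occurred in 11 of 43 windows of the set (25.6%), against 4071 of 32851 windows of all genes (12.4%), and in 9 of 32 genes of the set (28.1%), against 3781 of 27025 genes (14%). These shares describe the windows only, since the set was assembled around known NRF2 biology and genes with several starts have more chances of a match. The stretches below are examples. They come from the glutamate-cysteine ligase gene Gclm and the gamma-glutamyltransferase gene Ggt1, which passed the adjusted p used below. The others are the NRF2 gene itself, the thioredoxin reductase gene Txnrd1 and the metallothionein gene Mt2, which did not. Nqo1, a called gene whose window held no match, is shown for contrast. Srxn1, Gstm5, Mgst1 and Sod1 also held a match and are not printed. Genes with a match had differences of both signs. Capitals mark the motif, which reads GCNNNGTCA where it lies on the strand opposite to the gene, and each sequence runs 5′ to 3′ on the strand of the gene.
Gclm, chr3:122245307-122245556, plus strand: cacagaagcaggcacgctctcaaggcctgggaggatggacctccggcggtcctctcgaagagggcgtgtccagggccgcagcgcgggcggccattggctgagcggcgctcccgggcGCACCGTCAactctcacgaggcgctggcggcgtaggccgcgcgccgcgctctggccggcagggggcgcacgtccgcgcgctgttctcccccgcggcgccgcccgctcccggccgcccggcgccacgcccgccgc
Ggt1, one of its starts, chr10:75568611-75568649, plus strand: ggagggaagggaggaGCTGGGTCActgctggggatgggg
Ggt1, another start, chr10:75571462-75571500, plus strand: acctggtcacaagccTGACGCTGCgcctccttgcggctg
Nfe2l2, chr2:75704880-75704913, minus strand: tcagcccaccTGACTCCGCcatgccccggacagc
Txnrd1, chr10:82859099-82859137, plus strand: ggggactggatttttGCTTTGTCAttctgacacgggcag
Mt2, chr8:94172524-94172562, plus strand: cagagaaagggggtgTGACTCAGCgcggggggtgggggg
Nqo1, chr8:107403206-107403455, minus strand: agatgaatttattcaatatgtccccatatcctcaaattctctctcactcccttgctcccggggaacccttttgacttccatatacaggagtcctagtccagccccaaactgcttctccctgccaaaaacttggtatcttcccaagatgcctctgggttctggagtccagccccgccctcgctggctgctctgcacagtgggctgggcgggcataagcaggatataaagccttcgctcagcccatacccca
In Gclm the motif began 134 bases before the start, in Nfe2l2 240, in Txnrd1 92 and in Mt2 79 bases before it, and in the printed Ggt1 windows 36 and 83 bases before their starts. The absence of a match for Nqo1 says only that these letters are not in this window. Of the 6 genes called below, 4 had a window (Nqo1, Ggt1, Gstt1 and Txn1), and Ggt1 was the 1 with a match.

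The antioxidant genes called between the lines were a minority, as over the whole array, and pointed in different directions. Of the 35 genes that could be tested 4 rose in B16-F1 (Nqo1, Gstt1, Ggt1 and Hmox1) and 2 fell (Sod3 and Txn1), where a call needs an adjusted p of 0.05 or less in limma, with Benjamini-Hochberg adjustment over 18451 features, and a fold of at least 2. That is 17.1% of the tested members, against 15.2% of all features tested, with 6.29% of all features higher and 8.89% lower, so the share of called genes lay near that of the whole array. The called members include Nqo1, which passed the filter on dim probes through B16-F1 alone and so had to differ. A further 3 genes, Gclm, Sod2 and Txnrd2, passed the adjusted p but not the minimum fold, and 26 passed neither. Without a minimum fold 34.9% of all features passed. The median log2 difference, B16-F1 minus D5.1G4, was -0.0080 over the tested members and -0.0041 over all features, and the median size of a difference was 0.35 and 0.43 log2 units. Of 34 members measured on every array 15 had values that did not overlap between the lines, where this held for 50.7% of all features. The genes Gpx3, Gpx7 and Gsta4 were not well above background on any of the 6 arrays and were not tested. Levels are given below as the log2 of the signal relative to the 75th percentile of the same array, so 0 is the level of that percentile and -1 is 2-fold below it. A level in such a culture averages over its cells, and fewer expressing cells cannot be told apart from less RNA per cell.

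**Figure D1:**
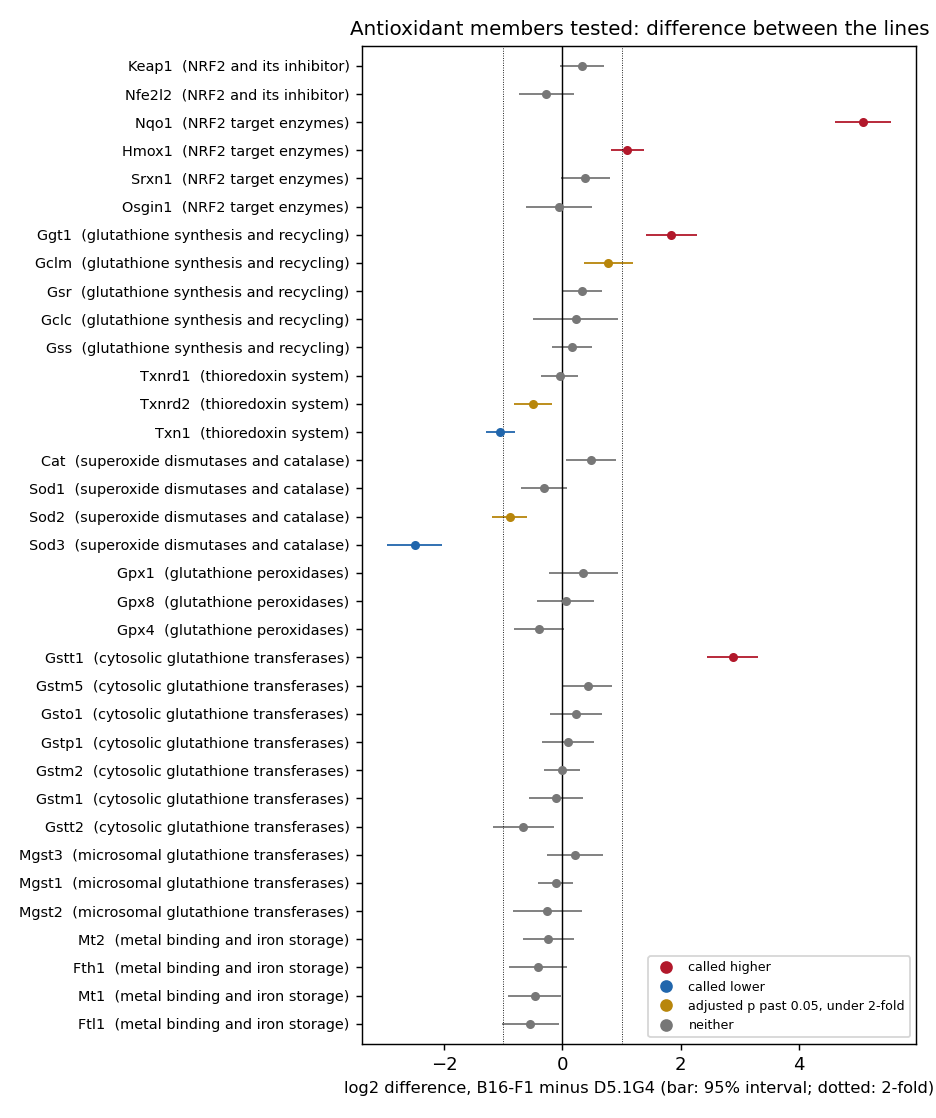
Log2 difference between B16-F1 and D5.1G4 (B16-F1 minus D5.1G4, horizontal axis) for the 35 tested genes, ordered by role. Points are limma estimates from 3 arrays a line (2 a line for Nfe2l2) and bars their 95% intervals, without adjustment for the number of genes, and dotted lines mark a 2-fold difference. Nqo1 lies farthest to the right at 5.08, a fitted value against a line in which it was not well above background, and Sod3 farthest to the left at -2.50.

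Neither of the regulators at the head of the pathway was called. Nfe2l2 stood at 4.06 and 3.79 on B16-F1 replicates 2 and 3, against 4.21 and 4.18 on D5.1G4 replicates 1 and 3, since its spot was marked as an outlier or non-uniform on the other arrays and was left out there. The difference of -0.27 (SE 0.17, adjusted p = 0.292 in limma, from 2 arrays in each line) lay within a 95% interval from -0.74 to 0.19. The B16-F1 arrays left were those of slide 1, and the D5.1G4 arrays left lay on slides 2 and 3. For Nfe2l2 a difference between the lines therefore cannot be told apart from a difference between slides. With the marked spots kept the difference was -0.19. Keap1, the inhibitor, was at -0.70, -0.69 and -0.67 on B16-F1 arrays and at -0.73, -1.11 and -1.22 on D5.1G4 arrays. These ranges did not overlap, yet the difference of 0.33 (SE 0.15) did not pass (adjusted p = 0.148), and its interval ran from -0.04 to 0.70. A 2-fold difference lay outside the interval of either gene. The array does not measure NRF2 protein or its location.

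Nqo1 was well above background in B16-F1 and on no array of D5.1G4. This gene encodes the quinone reductase that turns quinones into hydroquinones and is a textbook target of NRF2. Its level was -1.84, -2.40 and -2.45 on B16-F1 arrays, and -7.32, -7.15 and -7.46 on D5.1G4 arrays. Nqo1 was therefore measured in B16-F1 and only bounded in D5.1G4. The level in B16-F1 was at least 7.47-fold that in D5.1G4, a bound that was not itself tested. The means were -2.23 ± 0.34 in B16-F1 and -7.31 ± 0.15 in D5.1G4 (SD, n = 3 arrays each). Their fitted difference of 5.08 had an adjusted p of 3.82e-05 in limma. The bound sets the bright line against the lowest signal that counts as well above background on the D5.1G4 arrays. Under normexp background correction the fitted difference shrank to 2.30, with an adjusted p of 0.0207. Nqo1 was also the only member that passed the filter on dim probes through 1 line alone, and such a gene had to differ.

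Heme oxygenase 1, the stress-induced enzyme that opens heme to biliverdin, iron and carbon monoxide, moved the same way by a smaller amount. Hmox1 was at 3.07, 3.03 and 3.11 on B16-F1 arrays, against 2.01, 2.07 and 1.83 on D5.1G4 arrays. The arrays of each line lay close together and the lines did not overlap. Hmox1 rose 2.14-fold (log2 difference 1.096, SE 0.11, adjusted p = 0.00105, limma), just past the minimum fold. A dimmer Hmox1 probe gave 1.44, with 1 B16-F1 array, replicate 3, at -0.13, where the other B16-F1 arrays were at -1.78 and -1.77 and the D5.1G4 arrays between -3.05 and -2.40.

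The other NRF2 targets in this group were not called. Srxn1, the gene of sulfiredoxin, which rescues overoxidised peroxiredoxins, was at 4.93, 4.68 and 4.35 on B16-F1 arrays and at 4.18, 4.33 and 4.28 on D5.1G4 arrays. The ranges nearly touched, at B16-F1 replicate 3, and the difference of 0.39 (SE 0.17) did not pass (adjusted p = 0.131). In limma, Srxn1 passed the adjusted p with quantile normalization (0.58, adjusted p = 0.0312) and with the authors' deposited values (0.57, adjusted p = 0.0341), under 2-fold. It did not with normexp (0.32, adjusted p = 0.412) or with the slide as a block (0.62, adjusted p = 0.101). Osgin1, an oxidative stress-induced growth inhibitor, overlapped fully, with B16-F1 arrays between 1.51 and 2.37 and D5.1G4 arrays between 1.93 and 2.20 (difference -0.06, SE 0.23). Its sign turned with the slide as a block (0.30). Thus of 4 target genes grouped here, 2 rose, of which Nqo1 had to differ, and 2 were not called. Over all features 6.29% were called higher. These 4 are not all the NRF2 targets of the set, since glutathione and thioredoxin genes are grouped below. The count describes this grouping only.

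**Figure D2:**
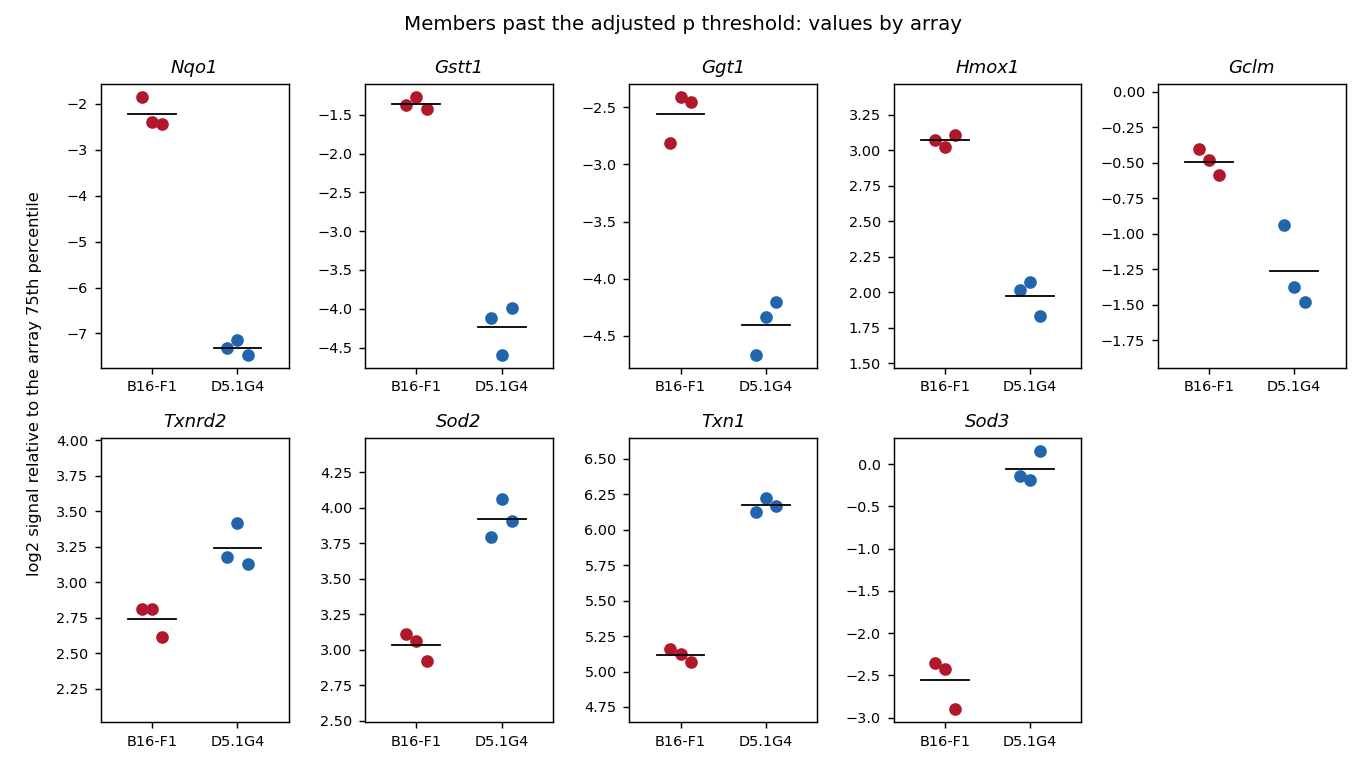
Level on each array of the 9 genes whose adjusted p was 0.05 or less, as the log2 signal relative to the 75th percentile of the array (vertical axis, its range differing by panel), with B16-F1 on the left and D5.1G4 on the right. Points are arrays and lines their means, and the values of the lines do not overlap in any of the 9 panels. The D5.1G4 values of Nqo1, from -7.46 to -7.15, were not well above background.

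Glutathione synthesis and recycling genes all had positive differences, though Gss turned to -0.0045 with normexp. Of these 5 genes 1 was called, where 15.2% of all features were called. Ggt1, the cell surface enzyme that removes the glutamyl group from glutathione outside the cell and so starts the recovery of its cysteine, was at -2.82, -2.41 and -2.45 on B16-F1 arrays. On D5.1G4 arrays it was at -4.66, -4.34 and -4.20, well above background throughout. Ggt1 rose 3.59-fold (log2 difference 1.84, SE 0.18, adjusted p = 0.000819, limma). With normexp the difference was 1.12 and the call was lost (adjusted p = 0.0832). Within slide 2, with 1 B16-F1 array against 2 D5.1G4 arrays, it was 1.45.

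The ligase that makes gamma-glutamylcysteine, the limiting step of glutathione synthesis, has a catalytic subunit, Gclc, and a modifier subunit, Gclm, which lowers the inhibition of the enzyme by glutathione. Gclm was at -0.40, -0.48 and -0.59 on B16-F1 arrays and at -0.94, -1.38 and -1.48 on D5.1G4 arrays. The lines did not overlap, and the difference of 0.77 (SE 0.17, adjusted p = 0.0157, limma) passed the adjusted p but stood below 2-fold. With the slide as a block Gclm reached 1.03 and was called (adjusted p = 0.0212, limma). That value is the difference within slide 2, from 1 B16-F1 array, so the slide 2 fit is no separate check. Without the arrays of slide 1, which again leaves 1 B16-F1 array, Gclm was at 0.86 and did not pass. Leaving out 1 array moved the difference between 0.67 and 0.94, and the adjusted p rose above 0.05 without B16-F1 replicate 2 (0.0516), D5.1G4 replicate 2 (0.0565) or D5.1G4 replicate 3 (0.0538).

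Gclc was uneven in D5.1G4. It was at 1.16, 1.42 and 1.43 on B16-F1 arrays, against 1.77, 0.66 and 0.92 on D5.1G4 arrays, so that D5.1G4 replicate 1 lay above every other array and the remaining D5.1G4 arrays below them. The difference of 0.22 had an SE of 0.29 and an interval from -0.49 to 0.94, and without D5.1G4 replicate 2 it was -0.0059. The gap between the differences of Gclm and Gclc was not tested. Gss, which adds glycine to complete glutathione, differed by 0.16 (SE 0.14), and Gsr, which reduces oxidised glutathione, by 0.33 (SE 0.14, adjusted p = 0.121), with a further Gsr probe at 0.37. Of the alternatives, only quantile normalization took Gsr past the adjusted p (0.43, adjusted p = 0.0474, limma), under 2-fold.

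In the thioredoxin system, which reduces disulfides in proteins and feeds peroxiredoxins, the carrier fell and its cytosolic reductase did not separate the lines. Txn1, the thioredoxin gene, was at 5.16, 5.13 and 5.07 on B16-F1 arrays, against 6.12, 6.22 and 6.17 on D5.1G4 arrays. The SD was 0.046 in B16-F1 and 0.052 in D5.1G4, far below the gap between the lines. Txn1 fell 2.08-fold (log2 difference -1.05, SE 0.10, adjusted p = 0.000778, limma). The gap slipped under 2-fold with quantile normalization (-0.81) and with the authors' deposited values (-0.80), at adjusted p-values of 0.0033 and 0.00351. The direction was the same under both, and the cause of the smaller gap was not tested. Txnrd1, the cytosolic thioredoxin reductase, was between 4.97 and 5.30 on B16-F1 arrays and between 5.15 and 5.25 on D5.1G4 arrays (difference -0.05, SE 0.13, interval from -0.36 to 0.26). Its sign turned with quantile normalization (0.17). Txnrd2, the mitochondrial reductase, was at 2.81, 2.81 and 2.61 on B16-F1 arrays and at 3.18, 3.42 and 3.13 on D5.1G4 arrays. Those ranges did not overlap, and the difference of -0.50 (SE 0.13, adjusted p = 0.029) was below 2-fold and did not pass with the slide as a block (adjusted p = 0.182). Leaving out 1 array gave adjusted p-values for Txnrd2 from 0.0464 to 0.0897.

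Superoxide dismutases, which turn superoxide into hydrogen peroxide, had negative differences in all 3 compartments they serve. These were not of equal size, and that of Sod1 depended on the scaling. Sod3, the secreted enzyme bound to the matrix, was at -2.36, -2.42 and -2.90 on B16-F1 arrays, against -0.14, -0.19 and 0.16 on D5.1G4 arrays. It was well above background on all 6 arrays. Sod3 fell 5.67-fold (log2 difference -2.50, SE 0.19, adjusted p = 0.000339, limma), and within slide 2, from 1 B16-F1 array, the difference was -2.34. Sod2, the mitochondrial manganese enzyme, was at 3.11, 3.06 and 2.93 on B16-F1 arrays and at 3.80, 4.06 and 3.91 on D5.1G4 arrays. These values did not overlap, and the difference of -0.89 (SE 0.12, adjusted p = 0.00283) stood just under 2-fold. Without the arrays of slide 1 the adjusted p of Sod2 was 0.0754. Sod1, the cytosolic copper and zinc enzyme, overlapped, from 5.91 to 6.28 on B16-F1 arrays and from 6.19 to 6.58 on D5.1G4 arrays (difference -0.31, SE 0.16, adjusted p = 0.178). With quantile normalization the Sod1 difference shrank to -0.037, and with the authors' deposited values to -0.022. Catalase, which removes hydrogen peroxide in peroxisomes, had the opposite sign. Cat was at 2.17, 2.42 and 1.84 on B16-F1 arrays and at 1.63, 1.80 and 1.55 on D5.1G4 arrays, a difference of 0.48 (SE 0.18) that did not pass (adjusted p = 0.0793), and a dimmer Cat probe gave 1.52. With the mean over probes Cat was at 0.9999 (adjusted p = 0.016, limma), barely under 2-fold. With quantile normalization it did not pass (0.50, adjusted p = 0.0621).

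Glutathione peroxidases use glutathione to reduce peroxides, and 0 of the 3 tested were called, where 15.2% of all features were. Gpx1, the common cytosolic form, was at 3.39, 3.42 and 3.25 on B16-F1 arrays and at 2.47, 3.20 and 3.33 on D5.1G4 arrays. Here 1 array, D5.1G4 replicate 1, stood low and widened the spread (difference 0.35, SE 0.24). Gpx4, which reduces lipid hydroperoxides in membranes and restrains ferroptosis, was at 4.07, 4.14 and 3.99 on B16-F1 arrays, against 4.18, 4.44 and 4.79 on D5.1G4 arrays. The ranges did not overlap, and the difference of -0.40 (SE 0.17, adjusted p = 0.124) did not pass. Gpx8, an endoplasmic reticulum member, differed by 0.05 (SE 0.20), and its sign turned with the slide as a block (-0.01). Gpx3, the plasma enzyme, and Gpx7 were not well above background in either line.

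Cytosolic glutathione transferases couple glutathione to electrophiles. Of 7 tested genes 1 was called, as higher, where 15.2% of all features were called in either direction. Gstt1, of the theta class, was at -1.38, -1.27 and -1.43 on B16-F1 arrays, and at -4.12, -4.59 and -3.99 on D5.1G4 arrays. The gene was well above background on every array of both lines. Gstt1 rose 7.34-fold (log2 difference 2.88, SE 0.18, adjusted p = 0.000176, limma), and within slide 2, from 1 B16-F1 array, the difference was 2.91. Its theta class relative Gstt2 had a difference of the opposite sign. Gstt2 was at -3.18, -2.91 and -3.28 on B16-F1 arrays and at -2.87, -2.33 and -2.18 on D5.1G4 arrays, and its difference of -0.66 (SE 0.21, adjusted p = 0.0563) narrowly missed the threshold. The gap between the differences of these relatives was not tested.

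The mu, pi and omega class genes lay closer together. Gstm1 and Gstm2 differed by -0.11 (SE 0.18) and -0.0080 (SE 0.12), with arrays that overlapped. Dimmer probes of these genes gave 0.41 for Gstm1 and 0.12 and 0.76 for Gstm2, and the signs turned with the mean over probes (0.15 for Gstm1, 0.29 for Gstm2). Mu class genes are close in sequence, so a probe may read more than 1 of them. Gstm5 was between 1.96 and 2.18 on B16-F1 arrays and between 1.35 and 1.90 on D5.1G4 arrays, with a difference of 0.43 (SE 0.17) that did not pass (adjusted p = 0.105). Gstp1, the pi class enzyme, which has a near-identical neighbour in Gstp2, differed by 0.09 (SE 0.18), with another probe at 0.47. Gsto1, of the omega class, differed by 0.23 (SE 0.18). Gsta4, which handles the lipid peroxidation product hydroxynonenal, stayed near background in both lines although its probe has 10 spots.

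Microsomal glutathione transferases, enzymes of membranes, showed 0 of 3 called, where 15.2% of all features were. Mgst1 differed by -0.12 (SE 0.12), Mgst2 by -0.26 (SE 0.24) and Mgst3 by 0.21 (SE 0.19), and the arrays of the lines overlapped in each. Second probes gave -0.07 for Mgst1 and 0.08 for Mgst3.

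Metal binding and iron storage genes, which keep free iron, copper and zinc low and so limit radical formation, all had negative differences that did not pass, except that Mt2 turned positive with quantile normalization and the authors' deposited values. Mt1, a metallothionein gene, was at 6.74, 6.995 and 6.63 on B16-F1 arrays and at 6.97, 7.54 and 7.26 on D5.1G4 arrays (difference -0.47, SE 0.19, adjusted p = 0.101). Mt2 differed by -0.24 (SE 0.18), and 0.14 under each of those scalings. Ferritin light chain, Ftl1, was at 6.69, 6.87 and 6.54 on B16-F1 arrays and at 6.87, 7.52 and 7.36 on D5.1G4 arrays, with a difference of -0.54 (SE 0.20, adjusted p = 0.0817) and another probe at -0.23. Ferritin heavy chain, Fth1, differed by -0.41 (SE 0.20). In all 4 genes D5.1G4 replicate 1 lay within the range of the B16-F1 arrays. With quantile normalization the differences of these bright probes shrank, to -0.048 for Mt1, -0.12 for Ftl1 and -0.019 for Fth1.

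Missing the threshold does not show that a gene was alike in the lines, but the intervals limit how much its signal can have differed under the scaling used. Of the 29 tested genes that were not called, 25 had a 95% interval that lay within 2-fold in both directions, and 4 had one that reached 2-fold: Gclm, Sod2, Gstt2 and Ftl1. These intervals are not adjusted for the number of genes. They do not cover a change of scaling, under which the bright probes of Sod1, Mt1, Mt2, Ftl1 and Fth1 shifted as given above. Nor do they cover the choice of probe, and the dimmer Cat probe gave 1.52, past 2-fold. For Nfe2l2 the interval does not cover a difference between slides. Leaving out a single array made no uncalled gene a called one, but it moved some adjusted p-values across 0.05. Without D5.1G4 replicate 1, the only array on slide 3, 6 of the 26 genes that had passed neither threshold had an adjusted p of 0.05 or less, at differences under 2-fold: Keap1 (0.47), Gclc (0.55), Gpx4 (-0.55), Gstt2 (-0.87), Mt1 (-0.62) and Ftl1 (-0.73). Without B16-F1 replicate 3 this held, among the same 26 genes, for Srxn1 (0.54) and Cat (0.64).

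**Figure D3:**
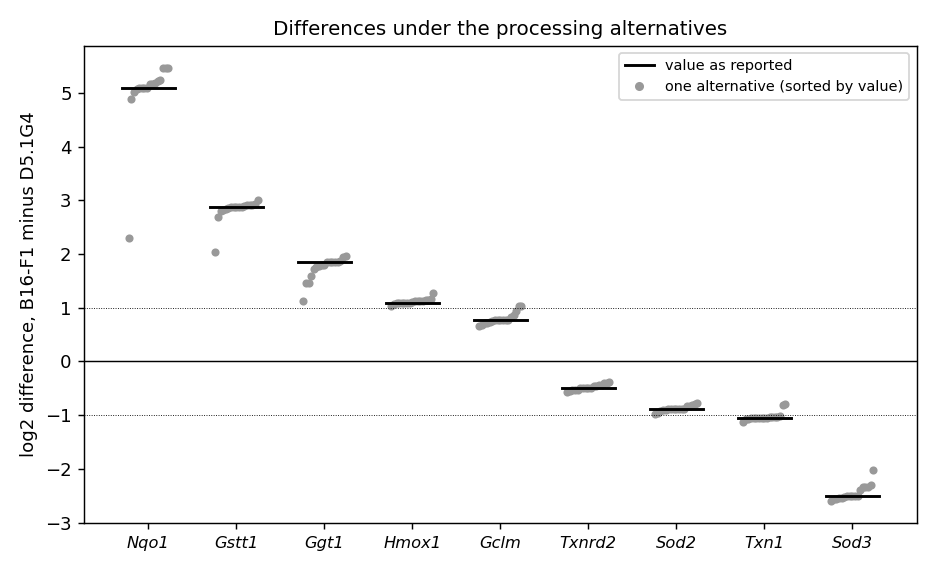
Log2 difference (B16-F1 minus D5.1G4, vertical axis) of the 9 genes of the plot by array under each processing alternative. Black lines are the values as reported, grey points single alternatives sorted by value, and dotted lines mark 2-fold. The low point of Nqo1, 2.30, and that of Ggt1, 1.12, come from normexp background correction, and the high points of Txn1, near -0.80, from quantile normalization and the authors' deposited values.

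Other genes of glutathione, NADPH and metal handling were taken from a list of 93, of which 86 were tested. Of these 9 rose and 5 fell, 16.3% in all, against 15.2% of all features. The median difference was 0.04, against -0.0041 over all features, so the wider list, like the members, lay near the whole array. The 9 include Anpep and Hpgds, which, like Nqo1, passed the filter on dim probes through B16-F1 alone and so had to differ.

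The regulators around NRF2 given here were not called. Bach1, a repressor that competes with NRF2 at its elements, differed by 0.34 (SE 0.16, adjusted p = 0.145), and Cul3, the scaffold of the ligase that degrades NRF2, by -0.54 (SE 0.12, adjusted p = 0.0166), under the minimum fold. A further pair, named after their values were seen, also passed the adjusted p at under 2-fold: Rbx1, the RING subunit of the same ligase, at -0.64 (SE 0.15, adjusted p = 0.0174), and the small MAF gene Mafk, at 0.47 (SE 0.13, adjusted p = 0.0361). The other small MAF genes, Mafg (-0.29) and Maff (0.08), did not pass.

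Genes of cystine import and of extracellular glutathione breakdown differed in both directions or did not pass. Slc7a11, the cystine and glutamate exchanger that supplies cysteine for glutathione, was at 0.88, 0.35 and 0.52 on B16-F1 arrays, against -0.86, -0.78 and -1.32 on D5.1G4 arrays, and rose 2.97-fold (adjusted p = 0.00246, limma). Its partner subunit Slc3a2 was not called (-0.04, SE 0.17), nor was the gamma-glutamyltransferase relative Ggt7 (-0.31, SE 0.17), and Ggt5 was not well above background in either line. Anpep, aminopeptidase N, which can split the cysteinylglycine left by Ggt1, was well above background in B16-F1 alone, at least 25.6-fold higher there. The adjusted p of its fitted difference, not of this bound, was 8.28e-05 in limma, a test the filter had already fixed. Dpep1, a dipeptidase acting on the same product, had the opposite direction, at -5.26, -5.06 and -5.46 on B16-F1 arrays and -4.36, -4.04 and -4.06 on D5.1G4 arrays. It fell by 1.11 on the log2 scale (SE 0.16, adjusted p = 0.00317), a call that was lost with normexp (-0.21, adjusted p = 0.867).

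Further transferases and reductases were called in both directions. Among transferases Gstm7 rose 3.99-fold (adjusted p = 0.00032), with a second probe also at 1.99 on the log2 scale, and Gstm6 rose 2.57-fold (adjusted p = 0.0102), with other probes at 0.66 and 1.45. Hpgds, a sigma class transferase that makes prostaglandin D, was likewise measured in B16-F1 alone, at least 3.09-fold higher. Its fitted difference had an adjusted p of 5.69e-05 in limma, with the same limit as for Anpep. Gstk1, of the kappa class, and Gsto2, of the omega class, fell by 1.57 and 1.42 on the log2 scale (adjusted p = 0.00114 and 0.0014). With normexp the calls of Gstm7 (1.26, adjusted p = 0.0646), Hpgds (1.58, adjusted p = 0.0767) and Gsto2 (-0.92, adjusted p = 0.144) were lost.

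The carbonyl reductase gene Cbr1 rose 2.67-fold and Idh1, whose enzyme makes NADPH in the cytosol, 2.56-fold (adjusted p = 0.000515 and 0.00198), whereas the aldo-keto reductase gene Akr1b8 fell by 1.24 on the log2 scale (adjusted p = 0.00211). The NADPH-producing enzymes G6pdx and Me1 differed by -0.29 (SE 0.18) and 0.22 (SE 0.15, with 2 D5.1G4 arrays) and were not called.

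Ppargc1a, a coactivator of mitochondrial genes, was at -2.59, -2.91 and -2.996 on B16-F1 arrays and at 0.58, -0.37 and -0.05 on D5.1G4 arrays. It fell by 2.89 on the log2 scale (SE 0.26, adjusted p = 0.000661), with a second probe at -2.75. Tfrc, the receptor for iron uptake, rose 2.20-fold (adjusted p = 0.00117), but not when its probes were averaged (0.21, adjusted p = 0.566), of which the 2 others were well above background on 1 array each. Slc40a1, the iron exporter ferroportin, differed by -0.93 (SE 0.20, adjusted p = 0.0137), under the minimum fold. The stress-induced sestrin gene Sesn2 rose 2.50-fold (adjusted p = 0.0406), but B16-F1 replicate 1, the B16-F1 array on slide 2, was at -1.34, where replicates 2 and 3, on slide 1, were at -0.23 and -0.09. With the slide as a block the difference was 0.76 (adjusted p = 0.0607), without the arrays of slide 1 it was 0.53, and with normexp it was 1.17 (adjusted p = 0.117). Its adjusted p was between 0.111 and 0.124 when replicate 2 or 3 of either line was left out. Txnip, which binds and inhibits thioredoxin, differed by 0.39 (SE 0.11, adjusted p = 0.0404), and Gpx2, an epithelial peroxidase and NRF2 target, was well above background on 2 B16-F1 arrays and 0 D5.1G4 arrays and was not tested.

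**Figure D4:**
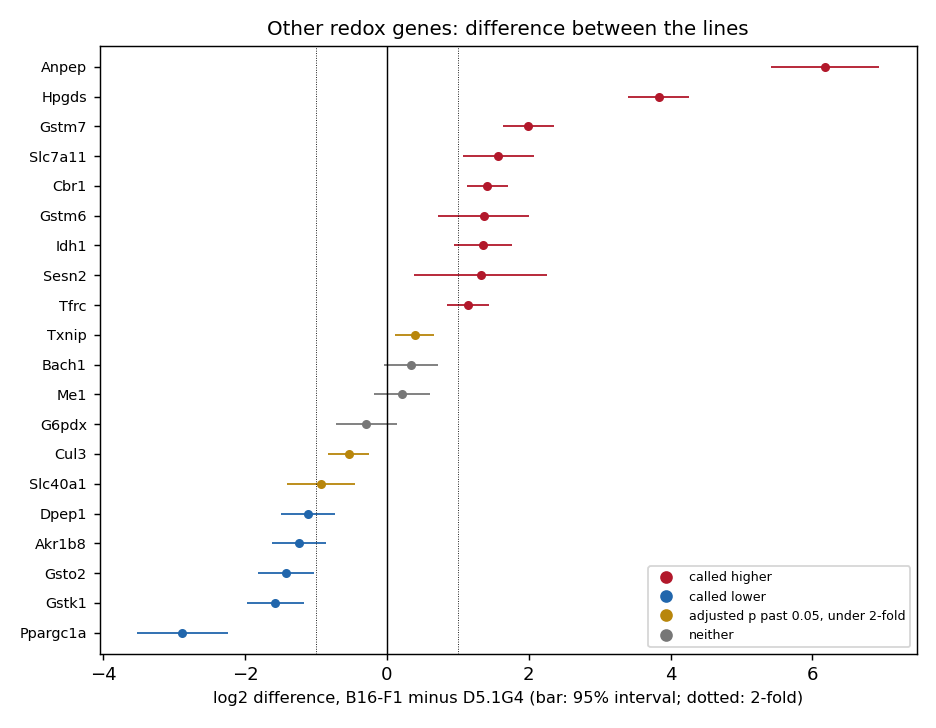
Log2 difference (B16-F1 minus D5.1G4, horizontal axis) of the 14 called genes of the wider redox list and of 6 further genes named whatever their values. Points are limma estimates from 3 arrays a line (2 D5.1G4 arrays for Me1) and bars 95% intervals, and dotted lines mark 2-fold. Anpep and Hpgds lie farthest to the right, as fitted values against a line in which they were not well above background, and Ppargc1a lies farthest to the left at -2.89.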

How the data were processed

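Total RNA of 3 B16-F1 and 3 D5.1G4 samples was labelled with Cy3 and read on one-colour Agilent mouse 4x44K v2 arrays. The deposited intensity of each spot was made with Agilent Feature Extraction 11.0.1.1, with background subtracted and trends removed within the array, per the file headers. The authors also deposited a table of log2 values for 22147 probes, with a normalization that neither labels nor headers state. The log2 processed intensity minus the 75th percentile of the array was used. Non-uniform and outlier spots (0.674% to 1.58%) were dropped, and repeated spots averaged. Accessions named 27234 of 39429 probes (69.1%) through RefSeq, and the brightest probe stood for a gene. Features well above background on at least 3 arrays were tested with limma 3.58.1 in R 4.3.3, with cell line as the only term, 2-sided, after the procedure was tested on simulated data. No spot was saturated, and the number of arrays limits the precision. Same-numbered replicates did not deviate together. They also shared no slide, so this check cannot settle whether the numbers pair the arrays, and the main fit used no pairing. Alternatives covered background, scaling, filters, probes, slides, single arrays and the fold. All 38 members are named, with every called gene of the wider list, 9 of its genes fixed by name (some also called) and a few chosen after their values were seen. Members and lists were chosen with earlier results of these data known.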

Additional observations from a re-analysis of the deposited data

How the results depend on the processing

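The 6 called members kept their call and direction under the no-filter, kept-spot, mean-over-probes and single-array alternatives. They also did with the slide or the replicate number as a block. The slide block takes its difference from 1 B16-F1 array, as do the fits within slide 2 and without slide 1. In those fits the 6 kept their direction, which is no separate check. With features above background on all 6 arrays Nqo1 was not tested and the other 5 kept their calls. With normexp 5 did, without Ggt1. The counts of called members were 4 higher and 2 lower under each single-array removal. Of members called lower 1 was left with quantile normalization and 1 with the authors' value table, both without Txn1, and 4 with no minimum fold. The wider redox list gave 17 higher and 15 lower with no minimum fold, and 6 higher and 3 lower with normexp. Over the whole array 2800 features were called, 1251 with normexp and 6435 with no minimum fold. Normexp was run on the median spot signal, an alternative chosen after seeing the data, because the files hold no mean signal; the version on the mean signal was not run. No alternative could be fitted for Nfe2l2 within slide 2, without slide 1 or with the replicate block. With the replicate block 2585 features were called, the 6 called members stayed called, and Gstm6 and Sesn2 of the wider list lost their calls (adjusted p = 0.0544 and 0.12). Deviations of same-numbered arrays correlated at -0.387, -0.0278 and -0.304 for replicates 1, 2 and 3. Of the 35 tested members 11, none of them called, changed sign under at least 1 alternative, and the cause was not tested. With the slide as a block, and equally within slide 2, Txnrd1 was 0.097, Gpx8 -0.014, Gstm2 0.044, Gstp1 -0.064, Mgst1 0.021 and Osgin1 0.30. Without the arrays of slide 1 Txnrd1 was 0.089, Gstm1 0.057, Gstm2 0.071, Mgst1 0.0038 and Osgin1 0.33. Quantile normalization and the authors' values gave 0.17 and 0.18 for Txnrd1, 0.15 and 0.13 for Gstm2 and 0.14 and 0.14 for Mt2. Normexp gave -0.0045 for Gss and 0.086 for Mgst2, and the mean over probes 0.15 for Gstm1 and 0.29 for Gstm2. Without 1 array the ranges were -0.0059 to 0.55 for Gclc, -0.12 to 0.047 for Txnrd1, -0.13 to 0.19 for Gpx8, -0.21 to 0.053 for Gstm1, -0.056 to 0.080 for Gstm2, -0.068 to 0.21 for Gstp1 and -0.26 to 0.17 for Osgin1.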
